A study of Mus musculus with 3 samples.

Results

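Histone and DNA modifiers, chromatin remodelers and the isocitrate dehydrogenases IDH1 and IDH2 were examined as a set of 51 genes, taken by name from a list and found among the 21883 protein-coding genes of the gene table. The set held 12 Polycomb genes, 11 histone methyltransferases, 7 demethylases, 5 genes of histone acetylation, 7 remodelers, 6 genes of DNA methylation, the 2 IDH genes and the insulator gene Ctcf. The assay was ATAC-seq on single nuclei: Tn5 transposase inserts into open DNA, and each nucleus carries a barcode. The 3 mouse libraries were Control and overexpression of either PDGFB-WT or PDGFB-NLS, each with glioma as its tissue. The series made tumors by in utero electroporation of piggyBac transposons, while the labels leave unclear if Control was one of them. The IDH genotype of the libraries was not given in the sources used here. PDGFB is a ligand of the platelet-derived growth factor receptors, NLS is given as the labels have it, and the number of animals per library, the strain and the age were not given in the sources used here. Each group had 1 library, so no difference below has a replicate check, and every interval covers counting error only.

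Chromatin modifiers write, erase or read marks on histones and DNA. Polycomb complex PRC2 methylates histone H3 and PRC1 ubiquitinates histone H2A, and both keep developmental genes repressed. The trithorax-related methyltransferases of the KMT2 family mark active promoters and enhancers, and SWI/SNF and CHD enzymes move nucleosomes with the energy of ATP. In glioma, mutant IDH makes a hydroxyglutarate that inhibits alpha-ketoglutarate-dependent enzymes, among them the TET DNA demethylases and the JmjC histone demethylases, which is why these families are described together here. What was measured is the openness of each gene's own DNA, not the amount or activity of its product.

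The series compared each PDGFB library with Control and the PDGFB libraries with each other. A gene's value was the count of the peaks within 1000 bp of a gene end, at the end with the higher mean, per 1000000 counts in the regions called in all 3 libraries (CPM). Ratios are log2 ratios of CPM relative to the median of all compared genes, with an exact 95% Clopper-Pearson interval computed on fragments. A member was called higher or lower at a ratio of 0.32 or more in either direction, a size and not a test. Peaks were called by the authors in each library separately, so the length of the called peak enters the sum. Ratios per kb of peak are given for part of the calls. Per kb, 4 of 11 called members were called in the same direction in PDGFB-WT against Control. In PDGFB-NLS it was 1 of 8 against Control and 5 of 11 against PDGFB-WT.

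A promoter window of the gene's own strand was held by RefSeq (build GRCm38.p6) for 43 of the 51 members. Windows of 280 bp, from 250 bases before the start to 30 after it, are printed for 6 members: Eed and Tet3, called at the gene end in both comparisons with Control, Ezh2, called in PDGFB-NLS against both other libraries, the 2 IDH genes, and Cbx7, which was singled out after its values were seen. The Tet3 window lies at a start 15530 bp from the gene end of its calls. At that start the ratios to Control were -0.42 in PDGFB-WT and 0.28 in PDGFB-NLS, the latter not called. Capitals mark matches to the motifs named below.
Eed: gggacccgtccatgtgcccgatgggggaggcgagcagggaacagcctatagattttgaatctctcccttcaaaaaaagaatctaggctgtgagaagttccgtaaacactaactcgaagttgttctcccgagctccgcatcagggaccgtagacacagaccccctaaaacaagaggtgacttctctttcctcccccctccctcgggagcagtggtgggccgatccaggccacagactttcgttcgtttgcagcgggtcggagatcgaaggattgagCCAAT
Ezh2: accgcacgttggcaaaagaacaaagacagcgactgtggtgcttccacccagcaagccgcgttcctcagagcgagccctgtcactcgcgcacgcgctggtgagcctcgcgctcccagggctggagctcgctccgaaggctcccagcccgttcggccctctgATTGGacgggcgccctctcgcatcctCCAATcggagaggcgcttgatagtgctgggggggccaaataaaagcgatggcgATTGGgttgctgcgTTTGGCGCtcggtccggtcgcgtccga
Cbx7: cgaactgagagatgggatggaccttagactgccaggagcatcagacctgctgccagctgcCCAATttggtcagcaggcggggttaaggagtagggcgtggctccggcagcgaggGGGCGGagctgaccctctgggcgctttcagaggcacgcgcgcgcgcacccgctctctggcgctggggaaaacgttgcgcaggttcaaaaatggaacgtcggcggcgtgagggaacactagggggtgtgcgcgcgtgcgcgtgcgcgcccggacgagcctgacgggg
Tet3: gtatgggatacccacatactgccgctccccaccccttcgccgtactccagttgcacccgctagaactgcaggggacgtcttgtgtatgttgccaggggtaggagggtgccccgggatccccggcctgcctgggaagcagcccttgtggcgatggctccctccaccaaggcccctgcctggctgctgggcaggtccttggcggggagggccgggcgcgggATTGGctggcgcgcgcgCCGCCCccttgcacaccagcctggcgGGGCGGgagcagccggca
Idh1: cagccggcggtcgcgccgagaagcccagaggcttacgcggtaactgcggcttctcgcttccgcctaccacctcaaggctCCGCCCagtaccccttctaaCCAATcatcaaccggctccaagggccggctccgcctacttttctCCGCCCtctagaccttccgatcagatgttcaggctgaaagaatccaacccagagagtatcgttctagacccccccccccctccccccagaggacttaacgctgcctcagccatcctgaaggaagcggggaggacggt
Idh2: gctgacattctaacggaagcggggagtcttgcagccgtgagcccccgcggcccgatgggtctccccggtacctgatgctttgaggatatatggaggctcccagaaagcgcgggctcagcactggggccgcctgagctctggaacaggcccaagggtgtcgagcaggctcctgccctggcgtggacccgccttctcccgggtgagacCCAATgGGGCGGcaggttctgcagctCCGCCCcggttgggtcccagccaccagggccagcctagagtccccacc
The windows lie on the minus strand, at chr7:89980947-89981226 for Eed, chr6:47595001-47595280 for Ezh2, chr15:79932617-79932896 for Cbx7, chr6:83441649-83441928 for Tet3, chr1:65186450-65186729 for Idh1 and chr7:80115321-80115600 for Idh2. Each covers the promoter and the first transcribed bases.

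Member promoters were rich in CpG and in GC boxes beside all windows of the table. For a member with several starts, the window of the start with the highest mean CPM in these data was taken. All windows of the table were counted without such a choice, so the shares below are not like for like. The member windows had a median of 30 CpG and 70% G or C, against 6 CpG and 52.5% over all 32851 windows of the table. The GC box GGGCGG, searched like all motifs on both strands, stood in 37 of 43 member windows (86.0%), against 34.7% of all windows. The CCAAT box CCAAT stood in 13 (30.2% against 36.1%), among them Ezh2, Eed and Suz12, which encode the PRC2 core. Ezh2 held 3 CCAAT boxes, with first bases at positions -90, -64 and -11 from the start, and an E2F match (TTTNGCGC) at position 4. Eed had its CCAAT box at position 26 and no GC box. The printed windows of Idh1 and Idh2 each held 1 CCAAT box and 2 GC boxes, and Idh1 entered the counts with the window of its other start.
The E2F letters stood in 2 member windows, Ezh2 and Dnmt1 (4.65% against 1.28%). The CRE letters TGACGTCA and the TATA letters TATAAA matched no member window, against 1.74% and 13.1% of all windows. The letters for ETS (CCGGAAG), NRF1 (GCATGCGC), YY1 (AAGATGGCG), E-box (CACGTG) and AP-1 (TGANTCA) matched 2 to 4 member windows each, against 8.45%, 2.58%, 1.05%, 6.79% and 7.46% of all windows. No matches overlapped in the printed windows, and a match is a description of letters, not a bound site.

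The authors' peaks reached most of these windows. At least part of the window was in a peak for 41 members in Control, 42 with PDGFB-WT and 41 with PDGFB-NLS, and the whole window for 40, 39 and 38. Eed was an exception: none of its 280 bases was in a Control peak, 80 were in PDGFB-WT and 162 in PDGFB-NLS. At Kmt2c the window was covered in Control and PDGFB-WT and not in PDGFB-NLS, and at Kmt2d in no library. A base outside a peak was not counted, which does not show that it is closed.

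A peak at a gene end was found in all 3 libraries for 45 members and in none for 2, Dnmt1 and Idh2. In 11 members the counted region also lay within 1000 bp of another coding gene, as at Bmi1 (Commd3), Ring1 (H2-Ke6), Kmt2b (Zbtb32), Nsd1 (Rab24) and Idh1 (Pikfyve), and their counts belong to both genes. The gene-end median was 66.8 CPM in Control (49 members with a peak), 63.1 in PDGFB-WT (45) and 64.4 in PDGFB-NLS (48). The 43 members that could be compared in all 3 libraries (at least 100 counts in each) had medians of 70.0, 64.2 and 71.0 CPM. All genes compared had 54.4, 47.1 and 53.0.

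**Figure D1:**
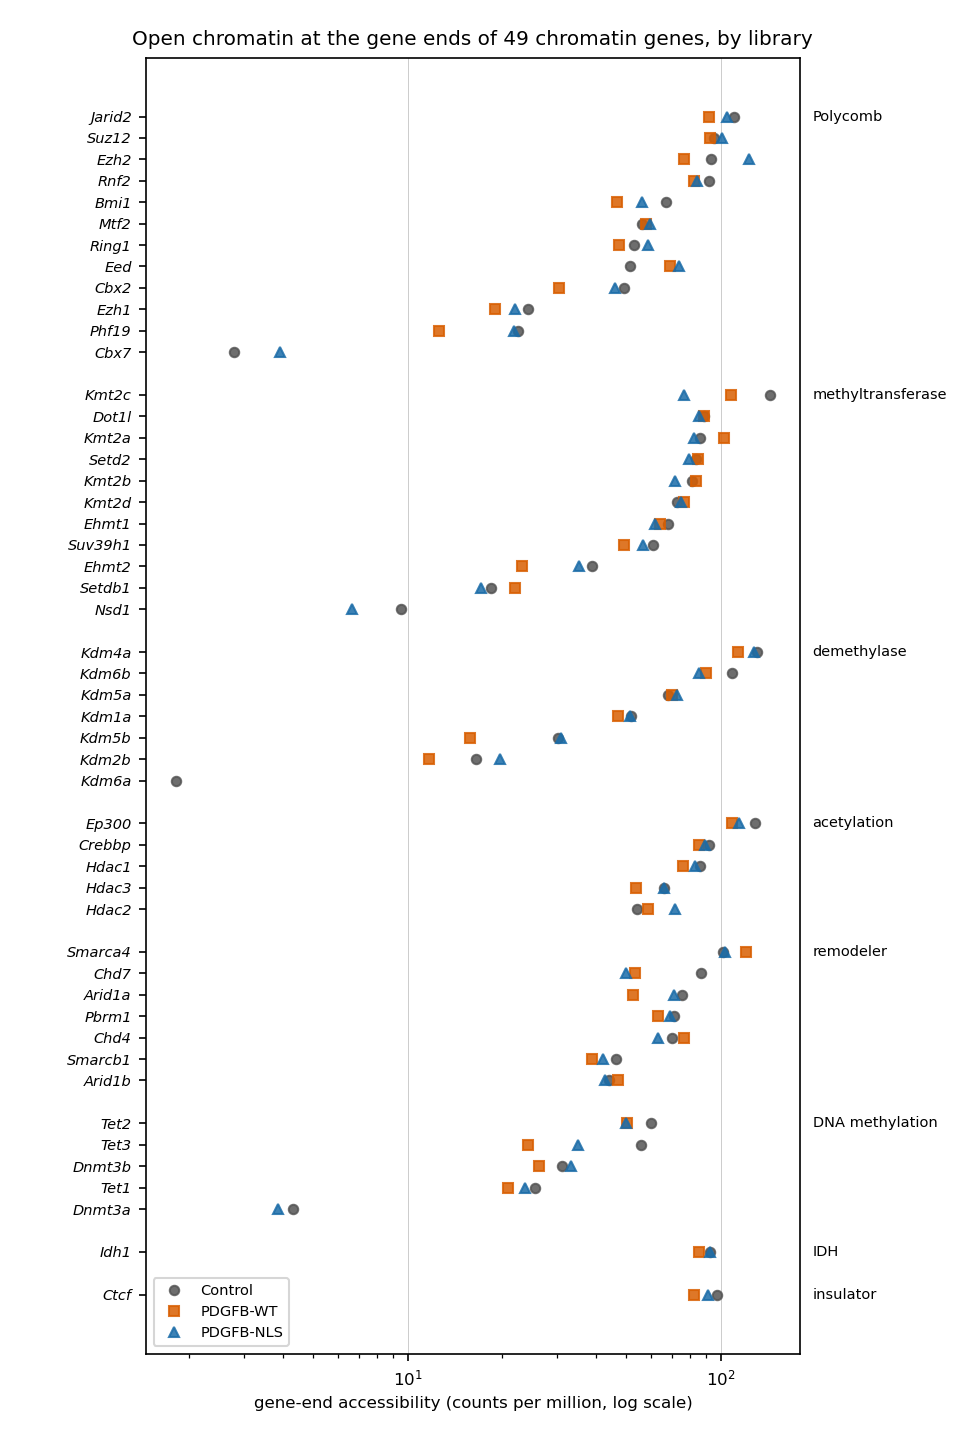
Gene-end accessibility in CPM (log axis) of the 49 members with a peak, by class and ordered by Control. Grey circles are Control, orange squares PDGFB-WT and blue triangles PDGFB-NLS, 1 library each, and a library with no peak has no symbol. Most members sit between 20 and 130 CPM, and the 3 symbols of a gene lie close together.

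The classes differed in level, but the end used was the start of the gene model in 37 of 41 members with a peak and a known strand. Tet3 is among these, although its nearest RefSeq start lies 15530 bp from that end. The other end was used for Cbx7 (2.79 CPM in Control, 43.8 at its start), Kdm6a (1.82 and 101.0), Kmt2d (72.7 and 49.6) and Dnmt3a (4.31 and 44.5). Among classes of 5 or more genes, acetylation had the highest median in Control (85.5 CPM) and PDGFB-NLS (82.7), while in PDGFB-WT methyltransferases had 76.5 CPM and acetylation 75.9. Within this class, Ep300, which encodes the acetyltransferase p300, stood at 128 CPM in Control, 109 with PDGFB-WT and 115 with PDGFB-NLS. The demethylase Kdm4a had 131, 113 and 128 CPM. The Polycomb class had a Control median of 54.5 CPM, with Suz12, the PRC2 core subunit, at 95.2, 92.6 and 100.7 CPM, and the alternative catalytic subunit Ezh1 at 24.2, 19 and 22. Genes of DNA methylation were the lowest class at 28.3 CPM, with the RefSeq starts of Dnmt3a and Tet3 outside the gene-end windows and no peak called at the gene ends of Dnmt1. The insulator gene Ctcf stood at 97.3, 82.1 and 91.0 CPM, and Idh1, the cytosolic isocitrate dehydrogenase, at 92.4, 85.5 and 92.4.
The depth behind these values was lowest in PDGFB-WT. Among the 43 members, counts at a gene end ran from 476 to 3696 in Control, from 107 (Kdm5b) to 815 (Smarca4) with PDGFB-WT and from 422 to 3138 with PDGFB-NLS.

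The libraries themselves differed. Median counts per barcode were 13054 in Control (2226 barcodes), 821 in PDGFB-WT (7441) and 2767.5 in PDGFB-NLS (10996), and pairs of libraries shared 22 to 118 barcode names. Of the 147229 merged regions, 47450 were called in all 3 libraries. Markers of oligodendrocyte precursors (16 genes) summed to 271 CPM in Control, 369 with PDGFB-WT and 357 with PDGFB-NLS. Astrocyte markers (18) summed to 355, 424 and 399, with Aqp4 and Slc4a4 at 0 in all libraries, and microglia or macrophage markers (20) to 508, 376 and 452. Endothelial markers (18) summed to 166, 45.1 and 114, with 13 of 18 at 0 in PDGFB-WT, Cldn5, Pecam1 and Cdh5 among them. Oligodendrocyte markers (18) summed to 341, 207 and 323, with 4 at 0 in PDGFB-WT. Neuron markers (16) summed to 128, 127 and 153, and mural or fibroblast markers (12) to 118, 82.7 and 130, each with 6 at 0 in PDGFB-WT. A marker at 0 had no peak called at the gene end used. PDGFB-WT had 57616 peaks from 7008951 counts, against 107627 from 31588784 in Control and 127094 from 31177621 in PDGFB-NLS. In sums over a whole library, more cells of a type, more accessibility per cell and the depth behind the called peaks cannot be told apart.

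In PDGFB-WT against Control, Smarca4 and Kmt2a were more open and Ehmt2 less open over peaks of about equal length, and the PRC2 gene Eed was more open over a longer peak. Of 43 compared members, 4 were called higher and 7 lower, 11 in all. Over all 10730 compared genes 25.4% were called, 14.0% higher and 11.4% lower, so 11 of 43 members is near the background. The median member ratio was -0.01, from -1.05 (Tet3) to 0.58 (Eed). Where the peak lengths of the 2 libraries differed by at most 1.2 times, 5 of 32 members were called (Setdb1, Kmt2a and Smarca4 higher, Ehmt2 and Arid1a lower), against 22.5% of all such genes (13.4% higher and 9.10% lower).

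**Figure D2:**
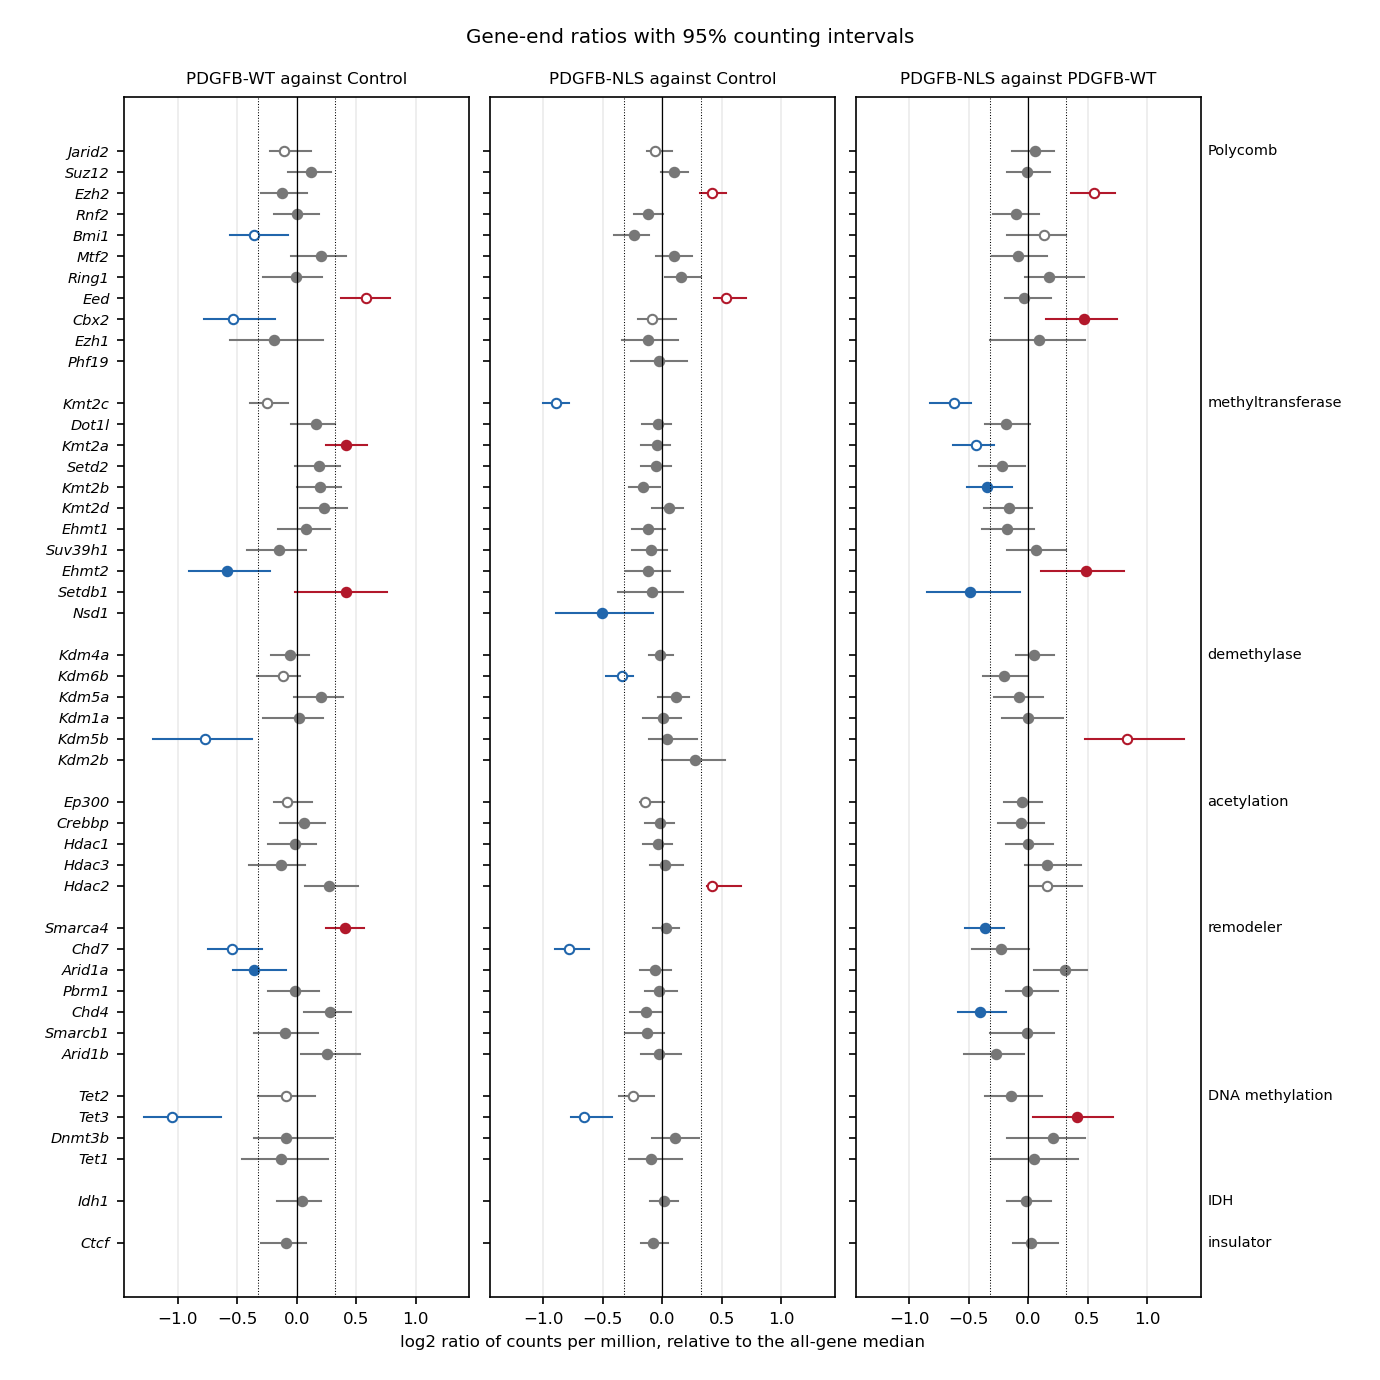
Log2 ratios of gene-end CPM relative to the all-gene median (x axis) for the compared members, by class, in the 3 comparisons. Bars are 95% counting intervals, dotted lines mark the call at 0.32, red is called higher, blue lower, and open circles have peak lengths that differ by more than 1.2 times. Most called members against Control are open circles, and Eed, Chd7 and Tet3 are called in both of these panels.

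Smarca4, the ATPase of the SWI/SNF remodeler, had 102 CPM in Control, 121 with PDGFB-WT and 103 with PDGFB-NLS. The PDGFB-WT library was the high one. The ratio to Control was 0.41 (0.25 to 0.57), and 0.36 per kb of peak, with a called length 0.99 times that of Control. Kmt2a, a trithorax-type methyltransferase, was also highest in PDGFB-WT, with 85.8, 102 and 82.3 CPM and a ratio of 0.41 (0.24 to 0.59), or 0.56 per kb. Setdb1, a methyltransferase of heterochromatin, was called higher at 0.42, but its interval ran from -0.01 to 0.76 and its levels were low (18.5, 22.1 and 17.2 CPM). Per kb its ratio was 0.19 at its RefSeq start, which is the gene end used, and so below the call.
Ehmt2, which encodes the euchromatic methyltransferase G9a, was the low one in PDGFB-WT, with 38.8 CPM in Control, 23.1 with PDGFB-WT and 35.3 with PDGFB-NLS. Its ratio was -0.59 (-0.91 to -0.22), and -0.47 per kb. Its partner Ehmt1 had 68.0, 64.2 and 61.9 CPM and a ratio of 0.08. Arid1a, a SWI/SNF subunit often mutated in cancer, had 75, 52.3 and 71.0 CPM at the end of the gene and a ratio of -0.36 (-0.54 to -0.09). At its other RefSeq start the levels were 70.5, 67.0 and 68.1 CPM and the ratio 0.08, so the call held at 1 of its 2 starts.

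Eed, which binds the Polycomb mark within PRC2, had 51.5 CPM in Control, 69.1 with PDGFB-WT and 73.8 with PDGFB-NLS. Both PDGFB libraries lay above Control, with ratios of 0.58 (0.37 to 0.78) and 0.53 (0.43 to 0.70). The called peak was 523 bp long in Control, 694 with PDGFB-WT and 697 with PDGFB-NLS. Its upstream edge lay 66 bp inside the gene in Control, 50 bp before the start with PDGFB-WT and 132 bp before it with PDGFB-NLS, which is the part of the printed window that the peaks reach. Per kb of peak the levels were 98.4, 99.5 and 106 CPM, and the ratios were 0.12 and 0.08, below the call. The larger Eed value thus went with a wider called peak rather than a higher density within it.
The other PRC2 core genes were not called. Ezh2, the main catalytic subunit, had a ratio of -0.13 in PDGFB-WT against Control and Suz12 one of 0.12, neither called. Bmi1 and Cbx2, of PRC1, were called lower, at -0.36 (66.8 CPM in Control, 46.7 in PDGFB-WT) and -0.54 (49.2 and 30.4), with shorter peaks in PDGFB-WT. Per kb these ratios were -0.08 and -0.21.

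Per kb of peak, 3 lower calls changed sign: Tet3, Kdm5b and Chd7. Tet3 is a DNA demethylase of the TET family. The peak at its gene end had 55.8 CPM over 2049 bp in Control, 24.2 over 765 bp with PDGFB-WT and 35 over 851 bp with PDGFB-NLS. The ratio of PDGFB-WT to Control was -1.05 (-1.28 to -0.63), and 0.32 per kb. Kdm5b, a demethylase of active promoter marks, had 2 peaks in Control (30.3 CPM) and 1 in PDGFB-WT (15.9), with a ratio of -0.77 and 0.44 per kb. Chd7, a remodeler of neural progenitors, had a peak of 2783 bp in Control against 913 in PDGFB-WT, with 86.5 and 53.2 CPM, a ratio of -0.54 and 1.0 per kb.
The remaining members named by rule were not called in this comparison. Kdm5a was the highest demethylase at 0.21, Hdac2 and Hdac3 the highest and lowest acetylation genes at 0.27 and -0.13, and Dnmt3b the highest gene of DNA methylation at -0.09. Tet2, whose loss is common in myeloid cancers, had -0.09, Ctcf -0.09 and Idh1 0.05 (-0.17 to 0.21).

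**Figure D3:**
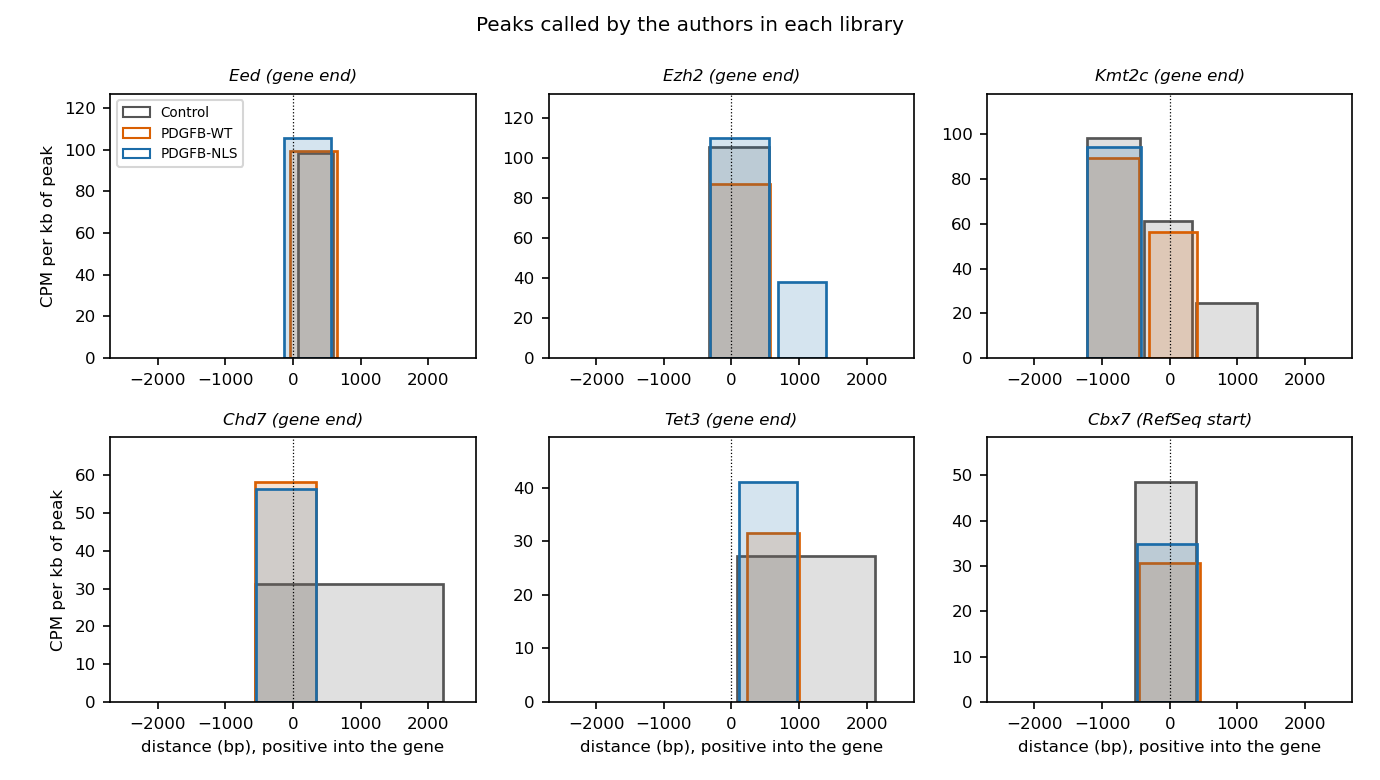
Peaks of 6 members as boxes, with the distance from the gene end or, for Cbx7, from the RefSeq start on the x axis (bp, positive into the gene) and CPM per kb of peak as height. Colors are the 3 libraries, and the area of a box is its CPM. The Eed peak reaches past the start in the PDGFB libraries, Ezh2 has an extra box in PDGFB-NLS, Kmt2c lacks boxes there, and Chd7 and Tet3 have long low boxes in Control.

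Marker genes moved in the same comparison. In PDGFB-WT against Control, 9 of 10 compared precursor markers lay above the all-gene median (list median 0.57), as did 10 of 13 astrocyte markers (0.51) and 3 of 11 microglia or macrophage markers (-0.19). For the other lists it was 2 of 6 oligodendrocyte (-0.26), 3 of 3 neuron (1.16), 0 of 2 mural or fibroblast (-0.27) and 0 of 1 endothelial markers (-0.34). The part of these shifts in the ratios of the members was not tested.

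In PDGFB-NLS against Control, few members differed once peak lengths were alike. Of 46 compared members, 3 were called higher (Eed, Ezh2 and Hdac2) and 5 lower (Kmt2c, Chd7, Tet3, Nsd1 and Kdm6b), 8 in all, against 18.1% of 13361 genes (11.9% higher and 6.20% lower). The median member ratio was -0.05. With peak lengths within 1.2 times, 1 of 35 members was called, Nsd1, which was lower, against 14.9% of such genes (10.5% higher and 4.36% lower). In whole regions called in all 3 libraries, 2 of the 8 calls held, those of Eed and Chd7. These sums still take each library's own peaks, and so do not compare the same bases. At Eed the peak had 523 bp in Control and 697 in PDGFB-NLS, and at Chd7 2783 and 884 bp.
Ezh2 had 93.2 CPM in Control, 76.5 with PDGFB-WT and 123 with PDGFB-NLS. The PDGFB-NLS library stood apart through a second peak of 711 bp and 27.1 CPM inside the gene, which was not called in the other libraries. The peak shared by all libraries had 93.2, 76.5 and 95.9 CPM. The ratio to Control was 0.42 (0.32 to 0.54) with the extra peak, 0.06 over shared regions and -0.46 per kb. Hdac2, a class I histone deacetylase, was alike: 54.1, 58.4 and 71.4 CPM, of which 14.6 in PDGFB-NLS lay in an extra peak of 311 bp. Its ratio was 0.42 in all and 0.09 over shared regions.

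Kmt2c, a methyltransferase of enhancers, gave the lowest ratio, -0.90 (-1.01 to -0.79). Its gene end had 143 CPM in 3 peaks in Control, 108 in 2 peaks with PDGFB-WT and 76.2 in 1 peak with PDGFB-NLS. The peak called in all libraries, upstream of the gene end, had 77.7, 68.3 and 76.2 CPM, and over it the ratio was -0.01. No peak was called over the Kmt2c start window in PDGFB-NLS, where Control had one of 43.6 CPM and PDGFB-WT one of 39.4. Kdm6b, a demethylase of the Polycomb mark, was called at -0.34 and had -0.08 over shared regions.
Chd7 had 49.7 CPM over 884 bp in PDGFB-NLS, with a ratio to Control of -0.78 and 0.84 per kb. Tet3 had a ratio of -0.66 at the gene end and 0.58 per kb. Nsd1, a methyltransferase of gene bodies, had 9.54 CPM in Control and 6.64 in PDGFB-NLS over peaks of equal length, with a ratio of -0.51 (-0.90 to -0.08). That peak lies within 1000 bp of Rab24 as well, and none was called there in PDGFB-WT. No promoter window was held for Nsd1, so this end is not known here to be its start. The same limit applies to Cbx2, Kmt2b, Kdm5a, Kdm6b, Hdac1, Hdac3 and Chd7.
Members with lengths within 1.2 times lay close to Control. Smarca4 had a ratio of 0.03, Suz12 0.10, Kmt2a -0.04, Ehmt2 -0.12, Ctcf -0.08 and Idh1 0.02 (-0.10 to 0.13). Further highest and lowest members were Bmi1 (-0.24), Kmt2d (0.05), Kdm2b (0.27), Ep300 (-0.15) and Dnmt3b (0.11), and Tet2 had -0.25. The Kmt2d end is not its start, where the ratio was 0.20 (0.01 to 0.31). Kdm2b had 16.5 CPM in Control at this end and 70.8 at another RefSeq start, where the ratio was 0.11. Of the marker lists, 11 of 13 precursor, 10 of 15 astrocyte, 2 of 20 microglia or macrophage and 1 of 9 endothelial genes lay above the all-gene median (list medians 0.37, 0.23, -0.11 and -0.50). So did 7 of 17 oligodendrocyte, 7 of 10 neuron and 6 of 7 mural or fibroblast genes (-0.09, 0.19 and 0.30). The part of the marker shifts in these ratios was not tested.

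Set directly against each other, the PDGFB libraries gave ratios at the gene ends from -0.63 (Kmt2c) to 0.83 (Kdm5b). This comparison shares the PDGFB-WT library with that of PDGFB-WT against Control, and so gives no independent support to it. Of 43 compared members in PDGFB-NLS against PDGFB-WT, 5 were called higher and 6 lower, against 20.7% of 10740 genes (10.1% higher and 10.6% lower), and the median ratio was -0.01. With lengths within 1.2 times, 7 of 37 were called, 3 higher and 4 lower, against 18.2% (8.17% higher and 10.0% lower).
The 3 higher of these were Ehmt2 at 0.48 (0.11 to 0.80), Cbx2 at 0.47 (0.15 to 0.75) and Tet3 at 0.41 (0.04 to 0.71). The 4 lower were Setdb1 at -0.49 (-0.85 to -0.07), Chd4, the ATPase of the NuRD complex, at -0.40 (-0.59 to -0.19), Smarca4 at -0.36 (-0.53 to -0.21) and Kmt2b at -0.35 (-0.52 to -0.14). Chd4 had 70.0 CPM in Control, 76.3 with PDGFB-WT and 63.1 with PDGFB-NLS, and Kmt2b, a paralog of Kmt2a, 81.1, 83.3 and 71.5. Matched lengths still differ, and 5 of the 11 calls of this comparison held per kb of peak. Over the same peaks at the RefSeq start, the per kb ratios were -0.29 (Setdb1), -0.46 (Chd4) and -0.39 (Smarca4). Per kb, PDGFB-WT and PDGFB-NLS had 25.2 and 34.2 CPM at Ehmt2 and 35.8 and 53.6 at Cbx2. They had 31.6 and 41.2 at Tet3 and 95.9 and 90.4 at Kmt2b.
Kmt2a was called lower at -0.44 (-0.63 to -0.28), with a peak 1.26 times as long in PDGFB-NLS. Kdm5b (0.83), Ezh2 (0.56) and Kmt2c (-0.63) were called with peak numbers that differed. Per kb their ratios were -0.24, -0.28 and 0.24. Eed had a ratio of -0.03, Suz12 -0.01, Tet2 -0.14, Ctcf 0.02 and Idh1 -0.01 (-0.18 to 0.20). The other highest and lowest members were Rnf2 (-0.10), Kdm6b (-0.20), Hdac3 (0.16), Crebbp (-0.06) and Arid1a (0.31).

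Windows at RefSeq start sites, chosen after the data had been seen, gave values for members with starts away from the gene ends. Dnmt1, the maintenance DNA methyltransferase, has 3 RefSeq starts, 1 of them at the gene end, where no peak was called. At the start with a peak it had 64.1 CPM in Control, 61.9 with PDGFB-WT and 71.1 with PDGFB-NLS, with ratios to Control of 0.11 and 0.17. Idh2, the mitochondrial isocitrate dehydrogenase, whose start lies 3258 bp inside the gene model, had 55.2, 61.4 and 56.4 CPM. Its ratios were 0.31 (0.09 to 0.53) in PDGFB-WT and 0.05 (-0.12 to 0.17) in PDGFB-NLS, both short of the call. Kdm6a, an X-linked demethylase of the Polycomb mark, had 101.0, 109 and 104 CPM.
Of 42 members compared at start sites, 5 were called higher and 5 lower in PDGFB-WT against Control (24.8% of all genes). In PDGFB-NLS against Control, 4 of 43 were called higher and 2 lower (16.9%), and in PDGFB-NLS against PDGFB-WT 4 of 42 were called higher and 5 lower (20.5%).
Cbx7, a chromodomain subunit of PRC1, had peaks of matched length in all 3 libraries. Its start site had 43.8 CPM in Control, 27.7 with PDGFB-WT and 31.2 with PDGFB-NLS, and both PDGFB libraries lay below Control. The ratios were -0.50 (-0.85 to -0.21) and -0.47 (-0.66 to -0.29), and per kb -0.56 and -0.50. The PDGFB libraries differed from each other by 0.04 (-0.27 to 0.40). The comparisons share the Control library, so a high value there enters both.
Dnmt3a, a de novo DNA methyltransferase, had 44.5, 54.4 and 68.5 CPM at its start. PDGFB-WT had a ratio of 0.45 (0.22 to 0.70) over a peak of matched length. PDGFB-NLS had 0.64 through an extra peak of 24 CPM, and 0.02 over shared regions. Tet3 had 49.9, 33.5 and 60 CPM at the start site whose window is printed. The PDGFB-WT ratio there was -0.42 (-0.70 to -0.13) over a matched length. Tet3 was thus called lower in PDGFB-WT at both sites, but the gene-end call was over a shorter peak and changed sign per kb. In PDGFB-NLS the start-site ratio was 0.28 with an extra peak and -0.06 over shared regions.

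Peaks inside the genes, more than 1000 bp from either end, gave sums for fewer members, 22 in the comparisons with PDGFB-WT and 32 in PDGFB-NLS against Control. In PDGFB-WT against Control, 3 were called higher and 7 lower (57.5% of all genes called), with a median of -0.21. In PDGFB-NLS against Control, 3 were called higher and 4 lower (43.0%), with a median of -0.03. In PDGFB-NLS against PDGFB-WT, 7 were called higher and 3 lower (47.7%), with a median of 0.10. Over regions called in all 3 libraries, the counts were 3 higher and 9 lower of 22 (55.2%), 1 and 3 of 26 (31.4%), and 4 and 1 of 22 (39.2%). Arid1b, a long SWI/SNF gene, had 298 CPM in 49 peaks in Control, 207 in 13 with PDGFB-WT and 373 in 62 with PDGFB-NLS. Over its 11 shared regions the levels were 172, 195 and 178 CPM, with ratios to Control of 0.03 and -0.00.
Over shared regions, 3 members stood out in PDGFB-WT, chosen after their values were seen. Kmt2a had 20.8 CPM in Control, 40.5 with PDGFB-WT and 21.8 with PDGFB-NLS in 4 regions, a ratio of 0.81 (0.52 to 1.13) in PDGFB-WT and 0.02 in PDGFB-NLS. At its gene end, too, PDGFB-WT was the high library. Nsd1 had 71.0, 44.0 and 57.9 CPM in 1 region, with ratios of -0.84 (-1.07 to -0.57) and -0.34 (-0.47 to -0.19). Cbx7 had 130.0, 91.9 and 114 CPM in 5 regions, its start site included, with ratios of -0.65 and -0.24.

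Nuclei were also sorted into classes by counts at marker loci, with part of each marker list held back as a check. Of barcodes with at least 1000 counts, Control had 995 of 2093 assigned, PDGFB-WT 544 of 2889 and PDGFB-NLS 3082 of 10195, of which 228, 63 and 630 lay near the limit (enrichment under 2.5). The 4 classes with at least 1000000 counts whose held-back markers were at least 2-fold enriched and highest for their own class, in Control and PDGFB-NLS, were used. They were oligodendrocyte-like (138 and 541 barcodes), astrocyte-like (232 and 579), microglia or macrophage-like (205 and 721) and endothelial-like (250 and 341). Each was set against all other barcodes of its library. Precursor markers were also raised in the Control astrocyte-like class (2.26-fold, its own held-back markers 3.48-fold), and no doublets were removed.
Kmt2a was higher in astrocyte-like nuclei than in other nuclei, with 104 against 84.1 CPM in Control (ratio 0.40, 0.12 to 0.67) and 117 against 80.4 in PDGFB-NLS (0.58, 0.24 to 0.93). It was lower in microglia or macrophage-like nuclei, with 62.0 against 90.1 CPM (-0.55) and 61.6 against 84.2 (-0.51). At its RefSeq start, endothelial-like nuclei of Control had 71.0 against 87.2 CPM (-0.55, -0.83 to -0.14). Those of PDGFB-NLS had 81.3 against 82.3 (-0.18, -0.75 to 0.28). Kmt2b was higher in astrocyte-like nuclei (0.40 and 0.41), and Kmt2c lower in microglia or macrophage-like nuclei (-0.33 and -0.44). In precursor-like nuclei, whose held-back markers were enriched only 1.73-fold in PDGFB-NLS, Kmt2a had 57.4 against 83.6 CPM there (-0.49, -1.02 to -0.01), and a ratio of 0.20 (-0.33 to 0.71) in Control. The part of the cell classes in the PDGFB-WT value of Kmt2a was not tested.

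**Figure D4:**
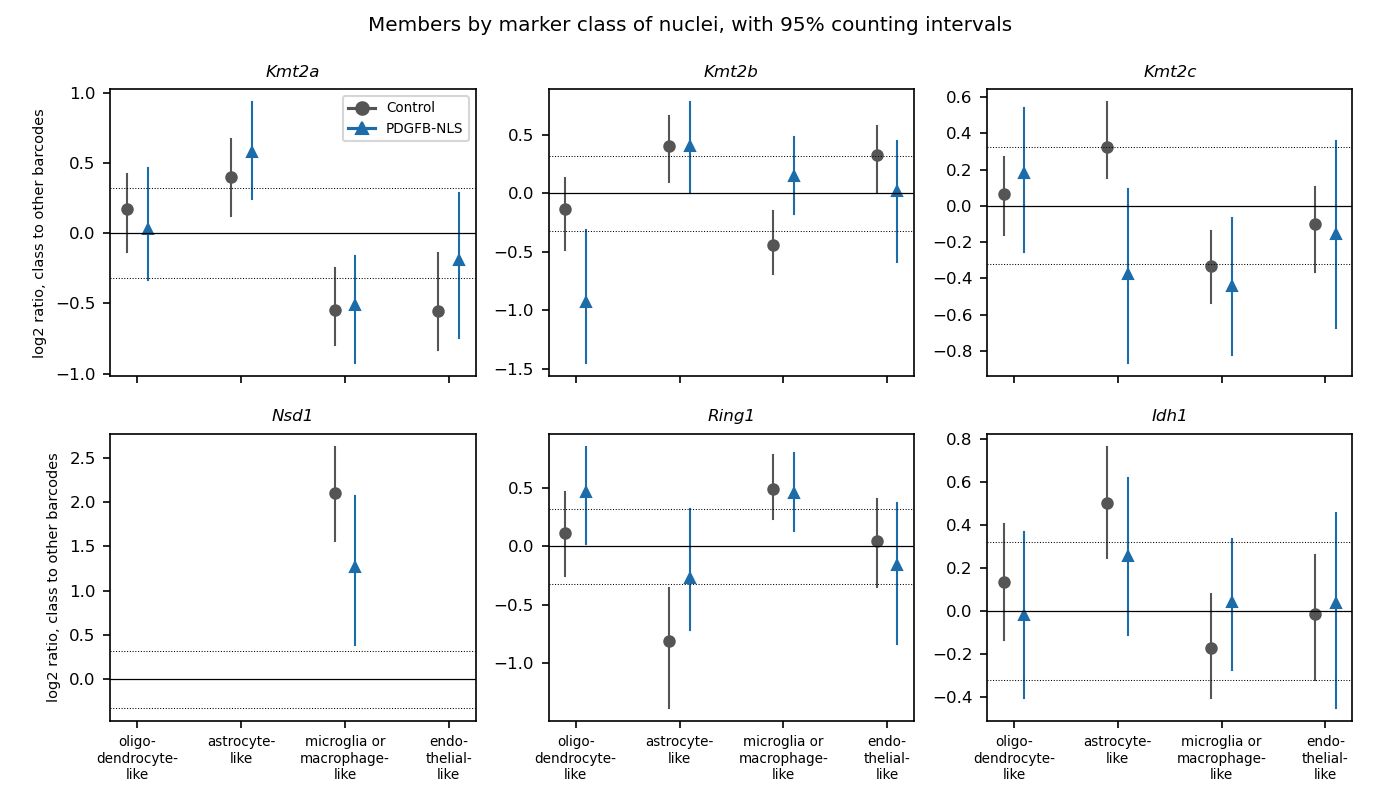
Log2 ratio of a class of nuclei to the other barcodes of its library (y axis), for 6 members in 4 marker classes. Grey circles are Control, blue triangles PDGFB-NLS, bars are 95% counting intervals and dotted lines mark a ratio of 0.32. A call here also needs an interval that leaves out 0. Kmt2a lies above 0 in astrocyte-like and below 0 in microglia or macrophage-like nuclei of both libraries, and Nsd1 had enough counts in the latter class only.

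Called in the same direction in both libraries were 2 of 42 members in astrocyte-like nuclei (Kmt2a and Kmt2b, against 9.38% of all genes). In microglia or macrophage-like nuclei they were 4 of 46 (14.1%), Kmt2a and Kmt2c lower and Nsd1 and Ring1 higher. In oligodendrocyte-like nuclei it was 0 of 44 (7.37%) and in endothelial-like nuclei 0 of 41 (5.82%). With 3-fold marker enrichment, where fewer members had enough counts, Kmt2a in astrocyte-like nuclei was the 1 call of these 6 that held. None of the 4 calls in microglia or macrophage-like nuclei held, and Jarid2 was called lower there instead. Ring1, the ubiquitin ligase of PRC1, had ratios of 0.49 (0.23 to 0.78) and 0.45 (0.13 to 0.79). The gene end shared by Nsd1 and Rab24 had 27.6 against 6.4 CPM in Control (2.1, 1.56 to 2.62) and 14.9 against 5.93 in PDGFB-NLS (1.27, 0.38 to 2.07). Microglia or macrophage markers were lower in sum in PDGFB-NLS than in Control, as was this end in the whole library, and their part in it was not tested.
Start sites added values for Tet3 and the IDH genes. Tet3 was low in microglia or macrophage-like nuclei, with 22.9 against 54.4 CPM in Control (-1.25, -1.69 to -0.79) and 40.2 against 61.7 in PDGFB-NLS (-0.67, -1.12 to -0.21). Idh2 was higher in astrocyte-like nuclei of Control, with 87.4 against 52.0 CPM (0.85, 0.56 to 1.16), and had 65.5 against 56.4 in PDGFB-NLS (0.26, -0.22 to 0.70). Idh1 at its gene end had 119 against 89.7 CPM in astrocyte-like nuclei of Control (0.50, 0.25 to 0.76) and 106 against 91.1 in PDGFB-NLS (0.25, -0.11 to 0.62).
Cbx7 at its start had a ratio of 0.61 (0.27 to 0.95) in oligodendrocyte-like nuclei of Control and 0.13 (-0.62 to 0.69) in those of PDGFB-NLS. In precursor-like nuclei of PDGFB-NLS it had 16.9 against 32.1 CPM (-0.86, -1.99 to -0.02). In the astrocyte, microglia or macrophage and endothelial-like classes the ratios ran from -0.26 to 0.08 in Control and from 0.09 to 0.30 in PDGFB-NLS. Cbx7 had 65.1 CPM in oligodendrocyte-like nuclei of Control and 34.1 in those of PDGFB-NLS, and 54.2 and 40.0 in endothelial-like nuclei. In astrocyte-like nuclei it had 38.2 and 37.1 CPM, and in microglia or macrophage-like nuclei 37.8 and 34.3. The part of the cell classes in the library values of Cbx7 was not tested.

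A wider list of 133 chromatin genes that are not members was counted in the same way. In PDGFB-WT against Control, 13 of 116 compared genes were called higher and 14 lower (23.3% called, against 25.4% of all genes, median 0.02). Of these 27 calls, 16 had lengths within 1.2 times. In PDGFB-NLS against Control it was 8 and 4 of 124 (9.68% against 18.1%, median -0.00, 6 calls of matched length). In PDGFB-NLS against PDGFB-WT it was 12 and 10 of 116 (19.0% against 20.7%, median -0.01, 14 of matched length). The PRC1 genes Pcgf5 and Pcgf6 were among the highest, Pcgf6 with 12.5 CPM in Control, 22.4 with PDGFB-WT and 17.6 with PDGFB-NLS. Its ratios to Control were 1.0 (0.57 to 1.36) and 0.50 (0.23 to 0.82) over matched lengths. Pcgf5 had 0.64 and 0.61. Mbd1 was the third highest in PDGFB-WT (0.53), and Chd3 (1.29, but 0.37 over shared regions) and L3mbtl1 (0.60) were high in PDGFB-NLS. 
Among the lowest in PDGFB-WT against Control were Kdm3b (-0.84) and Brd2 (-0.82), both over shorter peaks, with per kb ratios of 0.20 and 0.65. Among those in PDGFB-NLS against Control were Atrx (-0.73) and Chd1 (-0.47), with 0.28 and 0.80 per kb. In PDGFB-NLS against PDGFB-WT, Brd2 (0.70) and Uhrf1 (0.68) were among the highest and Atrx (-0.58), Pcgf2 (-0.49) and Pcgf6 (-0.48) lowest.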

How the data were processed

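Deposited matrices hold raw counts of cut sites for each peak and barcode, made by the authors with cellranger-atac 2.1.0 per the file headers. Cell Ranger 8 and the build mm10 come from the submitters' processing notes. Each library has its own peak list, with settings not given in the sources used here. A minimum of 200 counts left 2226, 7441 and 10996 barcodes, with 31588784, 7008951 and 31177621 counts in Control, PDGFB-WT and PDGFB-NLS. CPM is per 1000000 counts in regions called in all 3 libraries. Gene ends came from RefSeq (GRCm38.p6, the assembly of mm10), counts were turned into fragments as (count + 1) // 2, and the all-gene median was -0.16, -0.02 and 0.13 in the 3 comparisons. Genes needed at least 100 counts in both libraries. No test between conditions is possible with 1 library per group. Named were members at the call (a log2 ratio of 0.32), the extremes of classes of at least 5, and Ezh2, Eed, Suz12, Dnmt1, Tet2, Tet3, Idh1, Idh2 and Ctcf, and of the wider list the 3 highest and 3 lowest, some of which are not reported here. Members and lists were chosen with earlier results of these data known. Classes of nuclei took barcodes with at least 2-fold enrichment at the choosing markers, 1.5 times that of the next class and 4 marker counts. Alternatives changed windows, filters, scaling, the call and the peaks used. Code was tested on simulated data (Python 3.11.15, numpy 2.4.6, pandas 2.3.3, scipy 1.17.1).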

Additional observations from a re-analysis of the deposited data

How the results depend on the processing

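No paired analysis was possible because each group had 1 library. The median member ratio ran from -0.17 to 0.09, from -0.06 to 0.02 and from -0.06 to 0.12 over the alternatives in the 3 comparisons. The number of members called moved with peak length: 5, 1 and 7 (PDGFB-WT against Control, PDGFB-NLS against Control, PDGFB-NLS against PDGFB-WT) with lengths within 1.2 times, 2 in PDGFB-NLS against Control over shared regions and 7 in PDGFB-NLS against PDGFB-WT per kb of peak, against 11, 8 and 11. With 1.5-fold as the call it was 3, 3 and 2, and with a minimum of 300 counts 6 in PDGFB-WT against Control and 7 in PDGFB-NLS against PDGFB-WT. Per kb of peak the sign turned in PDGFB-WT against Control for Kdm5b (0.44, and 0.089 in 500 bp windows), Chd7 (1.01) and Tet3 (0.32). It turned in PDGFB-NLS against Control for Chd7 (0.84), Tet3 (0.58), Kmt2c (0.64), Ezh2 (-0.46) and Kdm6b (0.57), and in PDGFB-NLS against PDGFB-WT for Kdm5b (-0.24), Kmt2c (0.24, and 0.037 over shared regions) and Ezh2 (-0.28). At RefSeq start sites it turned for Arid1a in PDGFB-WT (0.083) and Tet3 in PDGFB-NLS (0.28). These turns follow from the alternatives' own construction, since called peaks differ in length or place. At 3-fold marker enrichment, members called in both libraries numbered 1 in astrocyte-like (2 before), 1 in microglia or macrophage-like (4, none of them the same gene) and 1 in endothelial-like nuclei (0). The start-site and matched-length alternatives were chosen after seeing the data. PDGFB-WT, with 7008951 counts, limits the precision of its ratios, and its classes of nuclei were too thin to use.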
